A study of Mus musculus with 48 samples.

Results

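The proteasome genes examined here are 47 mouse genes of the Psma, Psmb, Psmc, Psmd, Psme, Psmf and Psmg series, chosen by symbol from 48795 genes counted in striatum. A symbol of these series matched 49 genes, and the 47 with a mean of at least 0.5 CPM (counts per 1 M library counts) over all 48 libraries were kept. Just inside that limit was Psmb9 at 0.972 CPM. Just outside it was Psma8, a testis form of an alpha-ring subunit, at 0.271 CPM, and Psmb11, the thymus-specific beta subunit, at 0.016 CPM with 36 counts in all libraries together. All 47 genes passed the filter on low counts and were tested.

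The proteasome is the protease that degrades most ubiquitin-tagged proteins. Its 20S core is a barrel of alpha rings (Psma genes) that gate the entrance and beta rings (Psmb genes) that hold the catalytic sites. The 19S particle caps the barrel: its base (the Psmc ATPases with Psmd1, Psmd2 and Psmd4) unfolds substrates, and its lid removes ubiquitin. Psmb8, Psmb9 and Psmb10 are the immunoproteasome subunits, which replace the constitutive catalytic subunits Psmb5, Psmb6 and Psmb7 and are induced by interferon. Psme genes encode activators that open the 20S barrel in place of the 19S particle. Protein clearance is a long-standing question in Huntington's disease, because expanded huntingtin forms ubiquitin-positive inclusions in neurons.

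RNA was sequenced from the striatum of 48 mice on a C57BL/6 background, 8 per genotype, of which 4 were female and 4 male. In 3 genotypes huntingtin was normal: wild type (WT), Msh3+/- with 1 allele of the mismatch repair gene Msh3 lost, and Msh3-/- with both lost. The other 3 were heterozygous for the Q140 knock-in allele, a model of Huntington's disease, either alone (Q140), with 1 Msh3 allele lost (Q140 x Msh3+/-) or with both lost (Q140 x Msh3-/-). In a knock-in the endogenous Htt gene carries the expanded repeat in every cell that expresses it. The labels give an age of 12 months, but the extraction text has 6 months at dissection, and which of them holds is not known here.

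Library totals ranged from 38.9 M to 60.9 M counts. Msh3 RNA rose with each allele labelled as lost, from 28.97 CPM in WT over 73.94 CPM in Msh3+/- up to 122.4 CPM in Msh3-/- mice, and likewise in the Q140 groups. Every direction below therefore rests on the labels, not on loss of Msh3 RNA. Spiny projection neuron markers such as Ppp1r1b and Drd1 summed to between 10426 and 11715 CPM in WT mice, which fits the labelled tissue, and to between 5693 and 6378 CPM in Q140 mice. All 8 of these markers fell in Q140 mice. In bulk tissue, fewer cells of a type and less RNA per cell cannot be told apart.

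Levels were compared between genes only per transcript length, from the deposited FPKM values. The constitutive subunits were abundant, with mean FPKM over all mice of 65.8 for Psmb1, 59.9 for the ATPase Psmc5 and 51.3 for the ATPase Psmc1. Median FPKM was 18.3 over 7 alpha-ring genes, 31.5 over 7 constitutive beta-ring genes, 32.2 over 6 ATPases and 18.6 over 8 lid genes. The immunoproteasome genes lay below these medians, at 4.89 for Psmb10, 0.767 for Psmb8 and 0.266 for Psmb9. Psmb10 was nearer to the lowest alpha-ring gene, Psma3 at 6.18, while Psmb8 and Psmb9 were far below it. Within groups, the coefficient of variation of TMM-scaled CPM was 22.0% for Psmb8 and 22.3% for Psmb9. Among the constitutive 20S and 19S subunits it ran from 3.82% for Psmd3, a lid subunit, to 8.34% for Psma5 of the alpha ring. The same relative difference was therefore easier to detect in those genes than in Psmb8 and Psmb9.

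Q140 mice had slightly more RNA for many constitutive subunits than WT mice, with the largest estimates in the immunoproteasome subunit Psmb10 and the activator gene Psme1. With TMM scaling, 16 of 47 proteasome genes rose (34.0%) and 0 fell, where 17% of all 19714 genes tested rose and 16% fell, 33% in all (edgeR quasi-likelihood test, Benjamini-Hochberg adjusted p under 0.05). With library totals as the scale, 36 of 47 rose (76.6%) and 0 fell, where 29.3% of all genes rose and 10.5% fell, 39.7% in all. The median log2 fold change over the 47 genes was 0.09 with TMM and 0.16 with total counts, beside -0.004 and 0.065 over all genes tested. Abundant genes are more often called: among the 10117 genes tested with a mean of at least 10 CPM, 25.1% rose with TMM, against 37.8% of the 37 proteasome genes at that level. With total counts 44.4% of these abundant genes rose, against 83.8% of the 37. All 16 genes called with TMM were also called with total counts. DESeq2 called 16 as well, for which the share of all genes is not given here. With a term for the prefix of the sample names, which 15 of 27 prefixes gave to a single library, 4 remained (Psmb10, Psmc6, Psme1 and Psmf1, the last not called without the term), and 7.72% of all genes rose. The median log2 fold change over the 47 genes was 0.07 with this term, and 33 libraries shared a prefix with another library. A mouse alone in its prefix adds nothing to a comparison in this fit. This held for the Q140 mice F3, F4, M1, M3 and M4 and for the WT mice F3, F4 and M1. Fewer calls with the term therefore came with fewer mice compared. The meaning of the prefix is not given in the labels.

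**Figure D1:**
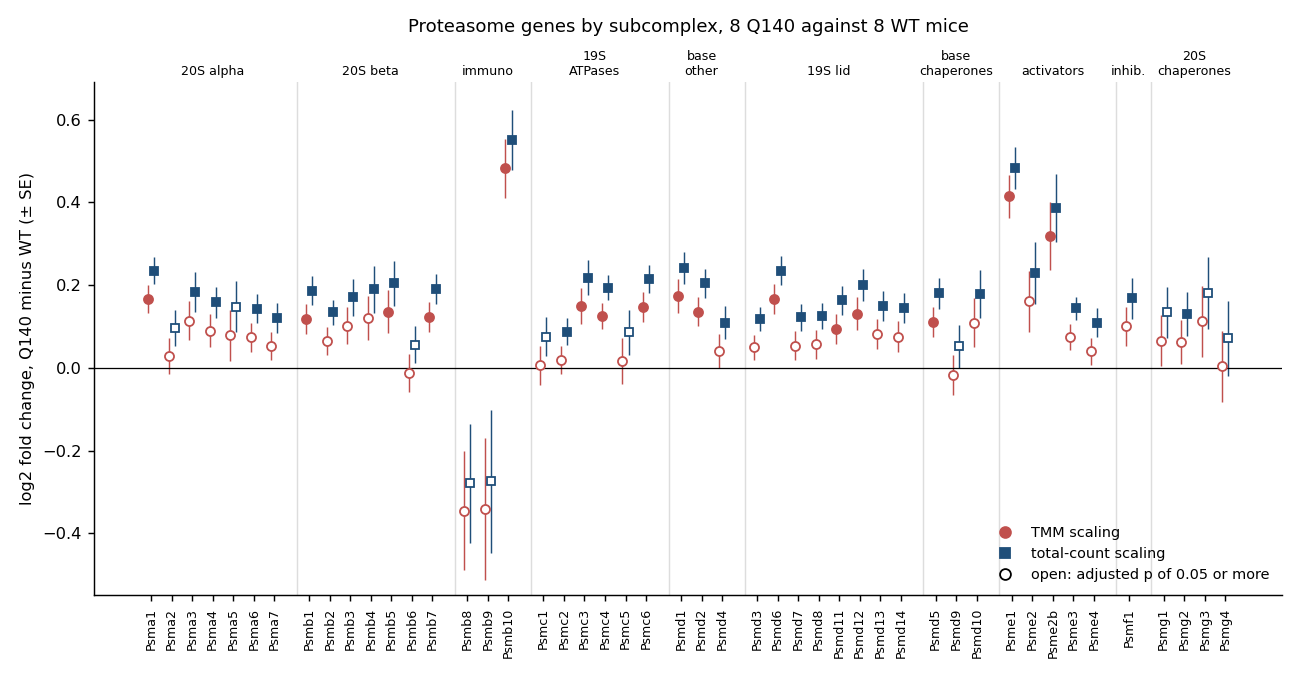
Log2 fold change of all 47 proteasome genes in Q140 minus WT mice (y axis, ± SE, 8 mice per group), grouped by subcomplex on the x axis, with TMM scaling as circles and total-count scaling as squares. Filled symbols have an adjusted p under 0.05. Most genes lie a little above 0 in both scalings, Psmb10, Psme1 and Psme2b stand higher, and Psmb8 and Psmb9 lie below 0 with wide errors.

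The largest difference was in Psmb10 (ENSMUSG00000031897 in the files; GRCm38 chromosome 8, 105935735 to 105938444, minus strand), which encodes the immunoproteasome counterpart of Psmb7. Its level in WT mice had a lowest value of 5.77, a median of 6.97 and a highest of 8.08 CPM. In Q140 mice these were 8.45, 9.27 and 11.3 CPM. Every Q140 mouse therefore lay above every WT mouse. The log2 fold change was 0.48 (SE 0.0715, adjusted p = 2.593e-07), a 1.40-fold rise. It was 0.55 with total counts, lay between 0.40 and 0.55 over 16 alternative analyses and was called in all 16.

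Psme1 (GRCm38 chromosome 14, 55578123 to 55581529, plus strand) encodes the alpha subunit of the interferon-inducible activator PA28. Its WT values ran from 16.0 over a median of 17.3 to 20.1 CPM. Its Q140 values ran from 20.5 over a median of 23.5 to 26.9 CPM. The groups did not overlap, and the log2 fold change was 0.41 (SE 0.0512, adjusted p = 3.193e-09), a 1.33-fold rise. Psmb10 and Psme1 were the only 2 of the 47 genes whose Q140 and WT groups did not overlap, and 3.88% of all genes tested were so separated in the upward direction. An overlapping gene on the opposite strand, Emc9, averaged 16.0 CPM in WT against 15.3 CPM in Q140 mice. Gm16156, which lies antisense to Psmb10, was at 0.0662 and 0.0525 CPM in the same groups.

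Neither of the other immunoproteasome subunits was called. Psmb8 encodes the counterpart of Psmb5, and its WT values ran from 1.63 over a median of 1.997 to 3.80 CPM. In Q140 mice they ran from 1.26 over 1.83 to 2.09 CPM. The groups overlapped. The log2 fold change of -0.35 (SE 0.145) did not pass (adjusted p = 0.05994), and it depended on 1 library. The WT female F2, at 3.80 CPM, stood apart from the next WT value of 2.25 CPM, and without it the log2 fold change was -0.19 (adjusted p = 0.3103). When 4 libraries far from the rest on the leading residual component were left out, none of them WT or Q140, it passed narrowly at -0.35 (adjusted p = 0.04908).

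Psmb9, the counterpart of Psmb6, was the scarcest gene of the set. It ran from 0.447 over a median of 1.07 to 1.39 CPM in WT mice. In Q140 mice it ran from 0.456 over 0.924 to 1.15 CPM, inside the WT range. Its log2 fold change was -0.34 (SE 0.172, adjusted p = 0.1254). Psmb9 lies beside Tap1 with overlapping spans on opposite strands, and the strand setting of the counting is not given in the sources used here.

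**Figure D2:**
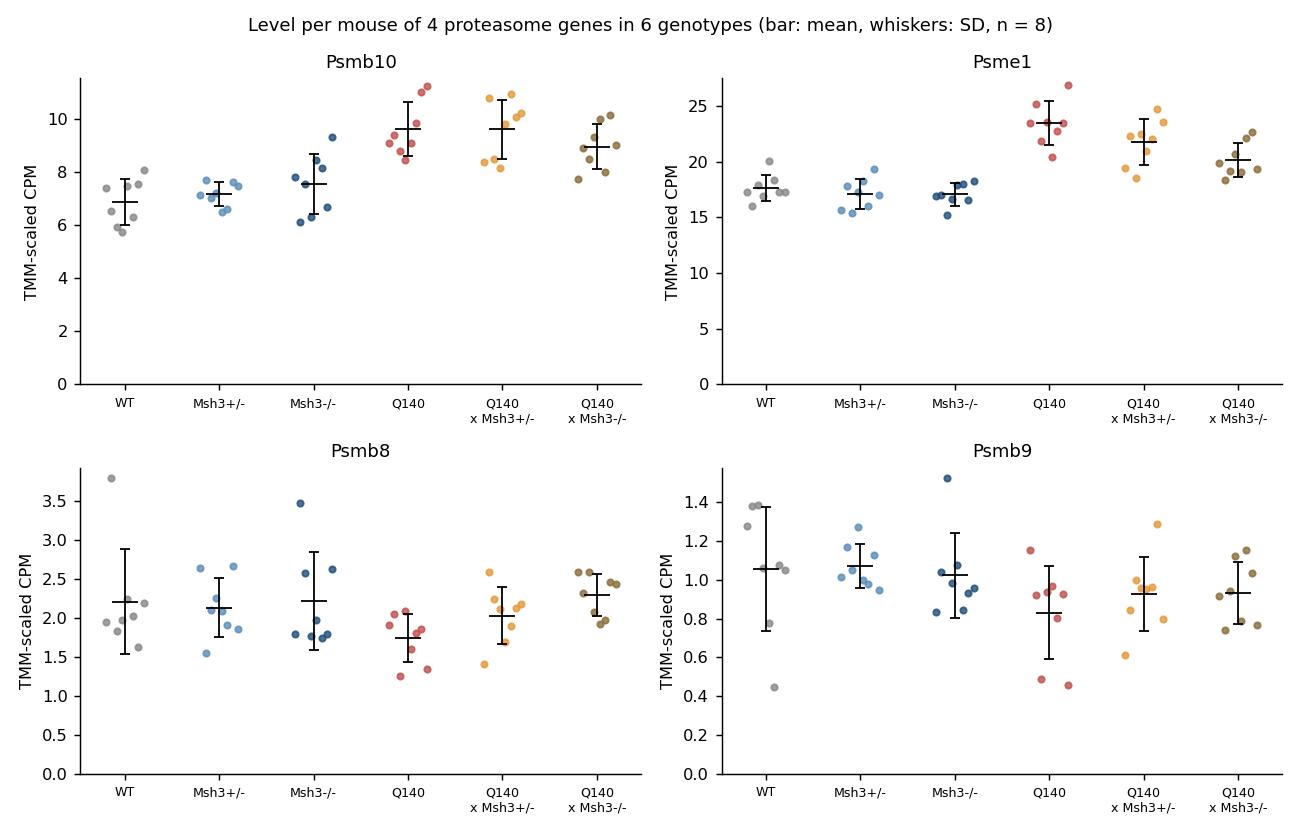
TMM-scaled CPM (y axis) of Psmb10, Psme1, Psmb8 and Psmb9 in each mouse of the 6 genotypes (x axis, 8 mice each); the horizontal mark is the mean and the whiskers are the SD. Psmb10 and Psme1 are higher in the Q140 mice than in all WT mice, while Psmb8 and Psmb9 overlap between genotypes. The highest Psmb8 values are 3.80 CPM in a WT mouse and 3.48 CPM in an Msh3-/- mouse, and 1 Msh3-/- mouse is high in Psmb9.

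Ratios within a mouse do not depend on how libraries are scaled. The FPKM ratio of Psmb10 to Psmb7 ran from 0.1995 over a median of 0.2613 to 0.2864 in WT mice. In Q140 mice it ran from 0.2922 over 0.31 to 0.3881, so all 8 Q140 mice were above all WT mice. It was also above all WT mice in 7 of 8 Q140 x Msh3+/- and 7 of 8 Q140 x Msh3-/- mice. Among mice without Q140, this held for 4 of 8 Msh3-/- and 0 of 8 Msh3+/- mice. The ratio of Psmb8 to Psmb5 averaged 0.0266 ± 0.00797 in WT and 0.0193 ± 0.00435 in Q140 mice (SD, n = 8), and 6 of 8 Q140 mice were below all WT mice. That of Psmb9 to Psmb6 averaged 0.00827 ± 0.00262 and 0.00657 ± 0.00197, with 0 of 8 Q140 mice outside the WT range. The ratio of Psmb10 to Psmb8 averaged 5.31 ± 1.35 in WT and 9.21 ± 2.25 in Q140 mice. These ratios are given as descriptions and were not tested.

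**Figure D3:**
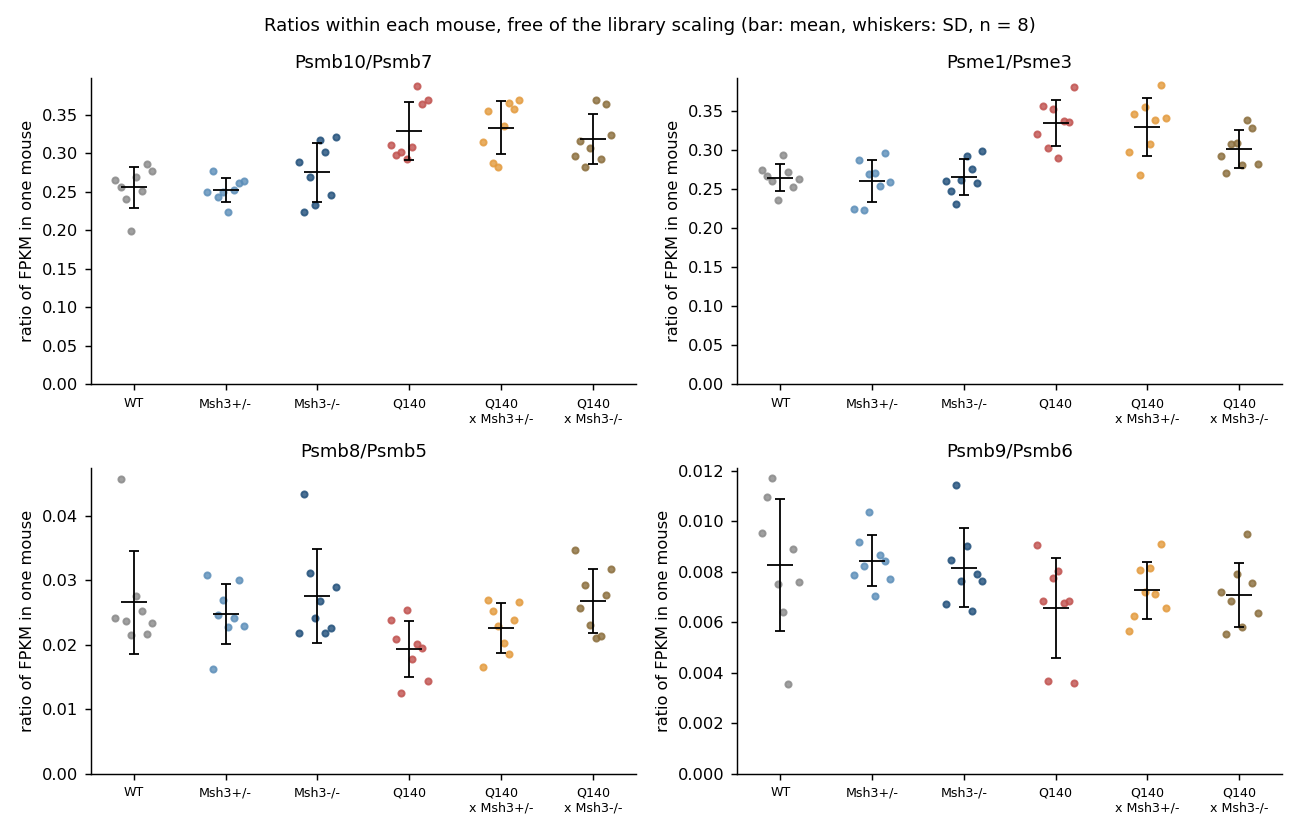
FPKM ratio within each mouse (y axis, no unit) of Psmb10 to Psmb7, Psme1 to Psme3, Psmb8 to Psmb5 and Psmb9 to Psmb6 in the 6 genotypes (x axis, 8 mice each; mark, mean; whiskers, SD). The 8 Q140 values of Psmb10 to Psmb7 lie between 0.2922 and 0.3881, above the highest WT value of 0.2864.

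Among the activators, Psme2 encodes the beta subunit of PA28, and Psme2b is a near copy of it. Of the 50-base windows of the annotated Psme2b transcript, 68.7% occur in Psme2 transcripts, so reads may be shared or lost between them and both values are uncertain. Psme2b ran from 5.90 over 7.24 to 8.35 CPM in WT and from 7.48 over 8.63 to 10.4 CPM in Q140 mice, with overlap. It rose by 0.32 on the log2 scale (SE 0.0826, adjusted p = 0.00184). Psme2 ran from 4.65 over 5.44 to 6.32 CPM in WT and from 5.53 over 6.14 to 6.47 CPM in Q140 mice, and its difference of 0.16 (SE 0.0739) did not pass with TMM (adjusted p = 0.09084). With both genes added together the mean was 12.6 ± 0.84 CPM in WT against 15.03 ± 1.14 CPM in Q140 mice, where 6 of 8 mice exceeded all WT mice.

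Psme3, which forms the nuclear activator PA28 gamma, and Psme4, which encodes the activator PA200, were not called with TMM. Psme3 had medians of 90.6 CPM in WT (80.2 to 95.6) and 94.2 CPM in Q140 mice (89.0 to 98.0). Its log2 fold change was 0.07 (SE 0.0311, adjusted p = 0.05886). Psme4 had medians of 67.1 CPM (63.4 to 71.6) and 69.3 CPM (64.9 to 71.9), with a log2 fold change of 0.04 (SE 0.0325, adjusted p = 0.371). Both groups overlapped for both genes. With total counts all 5 activator genes were called higher. The within-mouse FPKM ratio of Psme1 to Psme3 averaged 0.265 ± 0.0168 in WT and 0.335 ± 0.0296 in Q140 mice, and 7 of 8 Q140 mice exceeded all WT mice.

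The constitutive 20S core moved little. Of 7 alpha-ring genes, 1 rose with TMM (Psma1) and 5 with total counts, and all 7 estimates were above 0. Psma1 ran from 46.9 over 50.6 to 53.0 CPM in WT and from 50.8 over 57.2 to 59.8 CPM in Q140 mice, and 7 of 8 Q140 mice exceeded all WT mice. It rose by 0.17 (SE 0.0332, adjusted p = 6.833e-05). At the other end of the ring, Psma2 differed by 0.03 (SE 0.043, adjusted p = 0.6642), from a median of 44.0 CPM (39.7 to 48.7) in WT to 43.8 CPM (43.1 to 48.3) in Q140 mice.

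Of 7 constitutive beta-ring genes, 3 rose with TMM (Psmb1, Psmb5 and Psmb7) and 6 with total counts. The 3 catalytic subunits were not tested against each other. Psmb5, which carries the chymotrypsin-like site, ran from 23.9 over 25.9 to 29.8 CPM in WT and from 25.4 over 29.2 to 31.9 CPM in Q140 mice. The groups overlapped and the rise was 0.14 (SE 0.0525, adjusted p = 0.04049), which was not called without the WT female F2 (adjusted p = 0.05454). This rise was called in 12 of 16 alternative analyses. Psmb7, which carries the trypsin-like site, rose by 0.12 (SE 0.0367, adjusted p = 0.006848). Psmb6, which carries the caspase-like site, had medians of 64.4 CPM (60.6 to 72.3) in WT and 65.0 CPM (60.8 to 69.3) in Q140 mice. Its log2 fold change was -0.01 (SE 0.0453, adjusted p = 0.8654) with TMM and 0.06 with total counts, so its sign turned with the scaling.

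In the 19S base, 3 of 6 ATPases rose with TMM (Psmc3, Psmc4 and Psmc6) and 4 with total counts, which added Psmc2. Psmc3 had medians of 80.4 CPM (76.0 to 93.6) in WT and 92.9 CPM (83.4 to 99.99) in Q140 mice, and rose by 0.15 (SE 0.0438, adjusted p = 0.005786). Psmc1 had medians of 77.0 CPM (71.3 to 87.0) and 78.4 CPM (72.3 to 88.3), with a log2 fold change of 0.006 (SE 0.0474, adjusted p = 0.9397). The difference between these ATPases was not tested. Psmd1, the large scaffold of the base, showed the largest rise of the constitutive genes: from 91.9 over 104 to 111 CPM in WT to 101 over 116 to 136 CPM in Q140 mice. The groups overlapped, 6 of 8 Q140 mice exceeded all WT mice and the log2 fold change was 0.17 (SE 0.041, adjusted p = 0.0006781). Psmd2, a docking site for ubiquitin shuttles, rose by 0.14 (adjusted p = 0.00207). The ubiquitin receptor Psmd4 had medians of 63.1 CPM (60.2 to 70.7) and 65.7 CPM (62.8 to 69.9) and differed by 0.04 (SE 0.0407, adjusted p = 0.4796).

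Of the 8 lid genes, 3 rose with TMM (Psmd6, Psmd11 and Psmd12) and all 8 with total counts. Psmd6 ran from 36.9 over 39.8 to 42.3 CPM in WT and from 41.4 over 44.5 to 48.2 CPM in Q140 mice, where 6 of 8 exceeded all WT mice. It rose by 0.17 (SE 0.0355, adjusted p = 0.0001744). Psmd3 had the smallest estimate of the lid, 0.05 (SE 0.0297, adjusted p = 0.2065), with medians of 110 CPM (108 to 116) and 115 CPM (105 to 123). Psmd14, the lid deubiquitinase, differed by 0.08 (adjusted p = 0.118) and was called with total counts only.

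Of the 8 genes for assembly and inhibition, 1 rose with TMM and 4 with total counts. The base chaperone Psmd5 rose by 0.11 (SE 0.0373, adjusted p = 0.01735), from a median of 38.2 CPM (35.4 to 43.2) to 41.1 CPM (39.1 to 45.7). It was not called without the WT female F2 (adjusted p = 0.05786), and was called in 14 of 16 alternative analyses. Psmd9 differed by -0.02 (SE 0.0487, adjusted p = 0.8302) with TMM and by 0.05 with total counts, a sign that turned with the scaling. Psmf1, which encodes the inhibitor PI31, had medians of 25.9 CPM (23.1 to 27.3) and 27.5 CPM (25.3 to 28.7), with a log2 fold change of 0.10 (SE 0.0471, adjusted p = 0.09926). None of the 4 chaperones of 20S assembly, Psmg1 to Psmg4, was called with TMM and 1 (Psmg2) was called with total counts. Their estimates ran from 0.003 for Psmg4 to 0.11 for Psmg3 (SE 0.0866, adjusted p = 0.3445).

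Summed over subcomplexes, the 14 constitutive 20S genes stood at 603 ± 22.3 CPM in WT against 640 ± 23.7 CPM in Q140 mice with TMM (SD, n = 8), a ratio of 1.06, and the 17 genes of the 19S base and lid at 1209 ± 44.6 and 1287 ± 53.9 CPM, also 1.06. With total counts both ratios were larger, 1.11 and 1.12, and all 8 Q140 mice exceeded all WT mice in both sums. With TMM 4 of 8 did so in the 20S sum and 5 of 8 in the 19S sum. The sum of the 5 activators had a ratio of 1.08 with TMM and 1.13 with total counts. These sums are dominated by their most abundant members and were not tested.

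**Figure D4:**
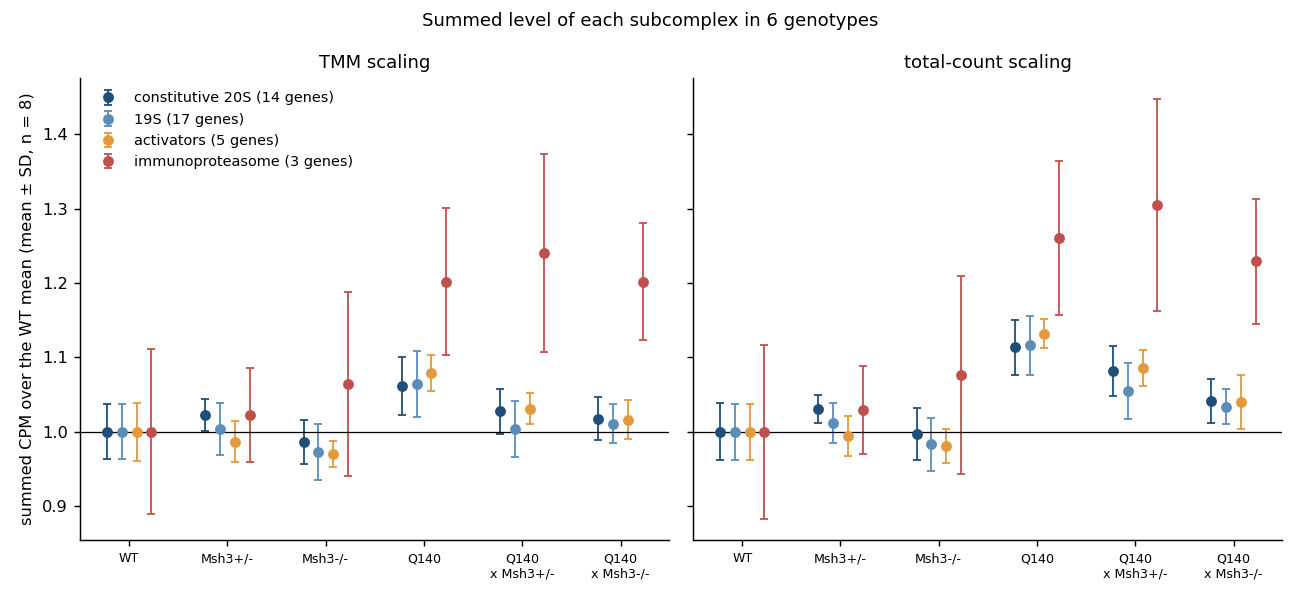
Summed CPM of each subcomplex over its WT mean (y axis, mean ± SD, 8 mice) in the 6 genotypes (x axis), with TMM scaling on the left and total-count scaling on the right. The Q140 group is highest for the 20S, 19S and activator sums in both panels, and the Q140 x Msh3+/- and Q140 x Msh3-/- means lie between the WT and Q140 means for these sums. The means of Msh3+/- mice, which lack Q140, also lie between them for the 20S and 19S sums.

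The Q140 effect was not found to differ between sexes. With genotype effects fitted separately in females and males, 0 of 47 genes differed in their Q140 effect with either scaling, where 0% of all genes tested did. At an unadjusted p under 0.05, 1 proteasome gene and 658 of all genes passed with TMM. Psmb10 rose by 0.48 (SE 0.102) in females and 0.49 (SE 0.101) in males, with a difference of 0.01 (SE 0.143). Psme1 rose by 0.47 (SE 0.0746) in females and 0.36 (SE 0.0745) in males, with a difference of -0.11 (SE 0.105, adjusted p = 0.9999).

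Genes that work with the proteasome moved both ways in Q140 mice. Of 28 tested partners and regulators, 8 rose and 4 fell with TMM, where 17% of all genes tested rose and 16% fell. With total counts 17 rose and 2 fell, where 29.3% of all genes rose and 10.5% fell. The median log2 fold change of the 28 was 0.04 with TMM. Among those that rose were Uba1, the main ubiquitin-activating enzyme, by 0.24 (SE 0.0315, adjusted p = 1.539e-08), Vcp, the unfoldase that extracts ubiquitinated proteins, by 0.17 (adjusted p = 9.645e-05), and its cofactor Nploc4 by 0.10 (adjusted p = 0.01329). Usp14, a deubiquitinase bound to the 19S base, rose by 0.15 (adjusted p = 0.0003088). Of the pathway that controls subunit transcription, Nfe2l1, the transcription factor itself, fell by 0.13 (SE 0.0322, adjusted p = 0.001667), and Ddi2, the protease that activates it, fell by 0.14 (adjusted p = 0.002315). Both falls were not called with total counts. Ngly1, which deglycosylates this factor, rose by 0.12 (adjusted p = 0.009723). The shuttle factor Ubqln4 fell by 0.27 (SE 0.0323, adjusted p = 2.04e-09), and Shfm1, which encodes the small lid subunit Sem1, fell by 0.18 (adjusted p = 0.002383). Pomp, the maturation factor of the 20S core, differed by 0.04 (adjusted p = 0.5615).

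Of 12 other interferon and antigen presentation genes, 1 rose and 2 fell with TMM, and 1 rose and 0 fell with total counts. Over all genes tested, 17% rose and 16% fell with TMM, and 29.3% rose and 10.5% fell with total counts. In Q140 x Msh3+/- minus Msh3+/-, 1 of the 12 rose with either scaling, where 10.8% of all genes rose with TMM and 22.9% with total counts. Their median log2 fold change in Q140 minus WT was -0.19 with TMM and -0.13 with total counts. Tap1 differed by -0.23 (adjusted p = 0.2329), H2-K1 by -0.21 (adjusted p = 0.1257) and B2m by -0.11 (adjusted p = 0.3871). Markers of several cell types other than neurons fell. Of 8 markers of microglia, which express Psmb8 and Psmb9, 4 fell with TMM and 2 with total counts, and their sum ran from 420.8 to 502.2 CPM in WT and from 353.0 to 411.0 CPM in Q140 mice, with no marker at 0. Of 5 astrocyte markers, 3 fell with TMM and 1 with total counts, and their sum ran from 3710 to 4086 CPM in WT and from 3180 to 3458 CPM in Q140 mice. Of 5 oligodendrocyte markers, 2 fell with TMM, and with total counts 2 fell and 1 rose. Of 4 endothelial markers, 3 fell with either scaling, and their sum ran from 122.8 to 176.2 CPM in WT and from 92.1 to 120.3 CPM in Q140 mice. The 4 lymphocyte markers were too scarce to be tested, with a sum of at most 0.593 CPM in any mouse. The part of these cell types in the levels of the proteasome genes was not tested.

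Promoter windows, 250 bases before to 50 bases after the RefSeq gene start (GRCm38.p6), were available for 40 of the 47 genes. They were searched on both strands for 3 short motifs. The antioxidant response element core, TGACNNNGC, which is bound by factors of the Nfe2l family, is shown here because these factors are known to drive subunit genes. It occurred in 6 of 40 proteasome genes (15%) and in 14% of the 27025 genes with a window. Of the 6, Psmb5, Psmc6 and Psmd12 rose in Q140 mice with TMM and Psmb6, Psmd9 and Psme4 were not called. Each site is printed 5′ to 3′ with 6 flanking bases where the window holds them, on the strand where the motif reads as written, and the capitals mark the motif.
Psmb5: aagttgTGACGTCGCggcgtt
Psmb6: agagagTGACGGAGCgcttta
Psmc6: aatgccTGACTTAGCtactgg
Psmd12: caaatgTGACACAGCaga
Psmd9: agccggTGACCCCGCccactt
Psme4: ttctggTGACGCTGCagccgc
The Psmb5 site lies at chr14:54618028-54618048 (minus strand), centred 43 bases before the start, and that of Psmc6 at chr14:45329591-45329611 (minus strand), 223 bases before it.

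The interferon regulatory factor element was searched as a pair of GAAA runs with 2 bases of any kind between them, since Psmb10 and the PA28 genes are interferon targets. It occurred in 5 of 40 proteasome genes (12.5%) and in 3.99% of genes with a window. Of the 5, only Psme1 rose in Q140 mice with TMM. Its site spans chr14:55578497-55578518 (minus strand) and is centred 13 bases after the start. The windows of Psmb8, Psmb9 and Psmb10 held no match to these letters. The sites are printed as above, with the motif in capitals.
Psme1: ggaaggGAAAGCGAAAgcacag
Psmg4: gcatctGAAAGTGAAAgagcgt
Psmb3: aaagcgGAAAGTGAAAagtcac
Psmd4: gccacaGAAATGGAAAggttgg
Psmd9: cagaatGAAAAAGAAAggaatg
The shorter CCAAT box occurred in 13 of 40 proteasome genes (32.5%) and in 41.1% of genes with a window. It was held by 1 of the 13 genes with a window that rose in Q140 mice (Psma1) and by 12 of the 27 others. These matches are descriptions of sequence and do not show binding.

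Losing Msh3 alleles without Q140 gave no call among the proteasome genes. In Msh3+/- minus WT, 0 of 47 genes were called, where 0.0101% of all genes tested were, and 1 passed an unadjusted p under 0.05. In Msh3-/- minus WT, 0 of 47 were called, where 0.0457% of all genes were, and 3 passed unadjusted. For both comparisons the share of all genes passing unadjusted is not given here. DESeq2 called 0 in both. Psmb10 differed by 0.13 in Msh3-/- minus WT mice (SE 0.0725, adjusted p = 0.8242) and Psme1 by -0.05 (SE 0.0519, adjusted p = 0.9014). Median levels of Psmb10 were 7.19 CPM with 1 Msh3 allele lost (6.52 to 7.72) and 7.70 CPM with both lost (6.11 to 9.35), overlapping WT.

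In Q140 mice, losing 1 Msh3 allele was followed by few calls. In Q140 x Msh3+/- minus Q140, 1 of 47 genes fell (2.13%) and 0 rose, where 0.477% of all genes tested fell and 0.842% rose, 1.32% in all. With total counts Psmd5 was again the 1 gene called, where 0.477% of all genes fell and 0.989% rose, 1.47% in all. The gene was the base chaperone Psmd5, which ran from 39.1 over 41.1 to 45.7 CPM in Q140 and from 35.8 over 36.9 to 40.3 CPM in Q140 x Msh3+/- mice. In 7 of the 8 mice it was below every Q140 mouse, and it fell by 0.16 (SE 0.0373, adjusted p = 0.01691). A further 14 genes passed an unadjusted p under 0.05, all of them lower, among them the lid genes Psmd14 (-0.13, adjusted p = 0.05465), Psmd11 (-0.13, adjusted p = 0.06971) and Psmd12 (-0.13, adjusted p = 0.08831). The share of all genes passing unadjusted is not given here, so this count cannot be read as particular to proteasome genes. Psmd5 was called in 15 of 16 alternative analyses. It was not called with the term for the sample name prefix, where 0.00507% of all genes fell and 0.0304% rose. The number of calls depended on which mice were included: 4 genes were called without the Q140 male M2 and 2 without the WT female F2. F2 is in neither group compared here, and shares of all genes are not given for these fits. Psmb10 had a median of 9.97 CPM (8.18 to 11.0), in the range of Q140 mice.

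With both alleles lost in Q140 mice, more genes passed the test, although the shift over the 47 genes was close to that with 1 allele lost. The median log2 difference from Q140 was -0.06 with 41 of 47 negative, beside -0.05 with 39 of 47 negative in Q140 x Msh3+/- mice; both share the Q140 mice. In Q140 x Msh3-/- minus Q140, 10 of 47 genes fell (21.3%) and 1 rose, where 7.57% of all genes tested fell and 8.75% rose, 16.3% in all. With total counts 22 fell (46.8%) and 0 rose, where 14.6% fell and 6.51% rose, 21.1% in all. Among genes of at least 10 CPM, 11.9% of all fell with TMM against 24.3% of 37 proteasome genes. With total counts 23.8% of these abundant genes fell, against 56.8% of the 37. The 10 genes were Psma1 and Psma3 of the alpha ring, the ATPases Psmc4 and Psmc6, Psmd1 of the base, Psmd6 and Psmd12 of the lid, the chaperone Psmd5, and the activators Psme1 and Psme2b. Of 7 constitutive beta-ring genes, 0 were called with TMM and 3 fell with total counts (Psmb1, Psmb2 and Psmb3). With the term for the sample name prefix, 1 gene remained (Psme1), where 0.791% of all genes fell and 2.44% rose. The median log2 difference over the 47 genes stayed at -0.06. Mice alone in their prefix again added nothing to this fit.

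Psme1 had the smallest adjusted p of these genes. It ran from 18.4 over a median of 19.6 to 22.7 CPM in Q140 x Msh3-/- mice, against 20.5 over 23.5 to 26.9 CPM in Q140 mice. The ranges overlapped, and 5 of 8 mice lay below all Q140 mice. It fell by 0.22 (SE 0.0509, adjusted p = 0.001283), and was called in all 16 alternative analyses. Psme2b, the uncertain near copy, fell by 0.23 (SE 0.0823, adjusted p = 0.04322), with values from 6.65 over 7.58 to 8.76 CPM. Psma3 fell by 0.18 (SE 0.0475, adjusted p = 0.006336), from a median of 25.7 CPM (23.9 to 27.8) to 23.2 CPM (20.02 to 24.5).

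The remaining constitutive genes fell by 0.11 to 0.14 each. Psmd5 went from a median of 41.1 CPM (39.1 to 45.7) to 38.0 CPM (34.9 to 40.5), by 0.14 (adjusted p = 0.005266). Psmd6 went from 44.5 CPM (41.4 to 48.2) to 40.6 CPM (38.8 to 41.7), also by 0.14 (adjusted p = 0.004317), and in both genes 6 of 8 mice lay below all Q140 mice. Psmc6 went from 53.6 CPM (49.3 to 58.8) to 48.7 CPM (47.96 to 50.7), by 0.13 (adjusted p = 0.0056). Psmd1 went from 116 CPM (101 to 136) to 104 CPM (100.2 to 114), by 0.14 (adjusted p = 0.0108), Psma1 from 57.2 CPM (50.8 to 59.8) to 52.2 CPM (48.2 to 55.6), by 0.12 (adjusted p = 0.009287). All overlapped with Q140.

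Psmb10 ran from 7.77 over a median of 8.98 to 10.2 CPM in Q140 x Msh3-/- mice, within or just below the Q140 range of 8.45 to 11.3 CPM. Its log2 difference of -0.10 from Q140 did not pass (adjusted p = 0.3762), and it was not tested against the falls of the other genes. Psmb8 was the 1 gene that rose, by 0.40 (SE 0.144, adjusted p = 0.04989), from a median of 1.83 CPM (1.26 to 2.09) to 2.37 CPM (1.92 to 2.59). Its call was borderline: it passed in 8 of 16 alternative analyses and did not pass with total counts (adjusted p = 0.06553). Of the 8 microglia markers, 2 rose in the same comparison, and the list's sum ran from 347.7 to 472.5 CPM, against 353.0 to 411.0 CPM in Q140 mice. The part of microglia in the Psmb8 level was not tested. Spiny projection neuron markers rose too, all 8 of them, to a sum of 7423 to 9770 CPM. Uba1 fell by 0.14 (adjusted p = 0.001368), Usp14 by 0.12 (adjusted p = 0.007478) and Vcp by 0.11 (adjusted p = 0.02762), and Ubqln4 rose by 0.16 (adjusted p = 0.0002655), 4 of the 5 partner genes called here with TMM. The fifth, Nploc4, fell by 0.11 (adjusted p = 0.01649). With TMM 4 of the 28 tested partner genes fell and 1 rose, where 7.57% of all genes fell and 8.75% rose. With total counts 10 partner genes fell and 1 rose, where 14.6% of all genes fell and 6.51% rose.

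**Figure D5:**
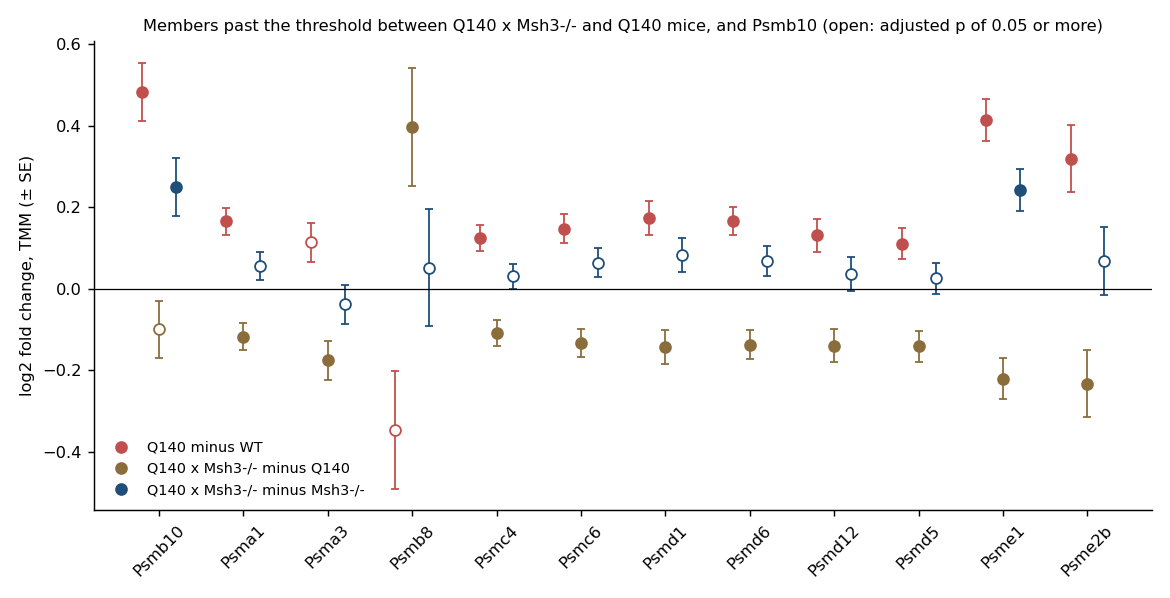
Log2 fold change with TMM scaling (y axis, ± SE, 8 mice per group) of Psmb10 and of the 11 genes called between Q140 x Msh3-/- and Q140 mice (x axis), in 3 comparisons; filled symbols have an adjusted p under 0.05. The first 2 comparisons share the 8 Q140 mice, and the last 2 share the 8 Q140 x Msh3-/- mice, so opposite signs between them are partly built in. Psmb10 and Psme1 are filled in the comparison of Q140 x Msh3-/- with Msh3-/- mice.

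On each Msh3 background, the mice with Q140 were also compared with those without it. In Q140 x Msh3+/- minus Msh3+/-, 2 of 47 genes rose (4.26%) and 0 fell, where 10.8% of all genes tested rose and 10.8% fell, 21.5% in all. They were Psmb10, by 0.42 (SE 0.0714, adjusted p = 7.708e-06), and Psme1, by 0.35 (SE 0.0514, adjusted p = 4.561e-07). In Q140 x Msh3-/- minus Msh3-/-, the same pair rose and 0 fell, where 4.01% of all genes rose and 3.84% fell, 7.86% in all: Psmb10 by 0.25 (SE 0.0716, adjusted p = 0.0208) and Psme1 by 0.24 (SE 0.0517, adjusted p = 0.001325). The ranges of Psmb10 did not overlap on the Msh3+/- background, at 6.52 to 7.72 CPM without and 8.18 to 11.0 CPM with Q140. It was the 1 such gene of 47, where 1.69% of all genes tested were separated upward. Those of Psme1 did not overlap on the Msh3-/- background, at 15.2 to 18.2 CPM without and 18.4 to 22.7 CPM with Q140, where 0.588% of all genes were separated upward. These 2 comparisons share no mice with Q140 minus WT. With total counts 14 genes rose on the Msh3+/- background, where 22.9% of all genes rose and 6.85% fell (29.7% in all). On the Msh3-/- background 5 rose, where 6.35% of all genes rose and 3.16% fell (9.51% in all). With the term for the sample name prefix, neither gene was called on the Msh3-/- background, and in a fit of those 2 groups alone only Psme1 was. The median log2 fold change over the 47 genes on that background was 0.053 without the term and 0.016 with it.

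The dependence of the Q140 effect on the Msh3 genotype was tested as an interaction. With Msh3+/-, 0 of 47 genes passed, where 0.0152% of all genes tested did with TMM, and with total counts 0 passed, where 0.0203% of all genes were higher and 0.00507% lower. With TMM 11 passed an unadjusted p under 0.05, all with a smaller Q140 effect. With Msh3-/-, 0 of 47 passed with TMM, where 4.09% of all genes were positive and 2.06% negative, 6.15% in all, and 7 passed unadjusted. The shares of all genes passing unadjusted are not given here for either interaction. DESeq2 called 0 in both. With total counts, 5 genes had a smaller Q140 effect on the Msh3-/- background (Psma1, Psmc4, Psmd3, Psmd6 and Psme1), where 6.06% of all genes did and 2.72% had a larger one, 8.78% in all. For Psme1 the interaction was -0.17 (SE 0.0727, adjusted p = 0.1599) with TMM and -0.22 (SE 0.0721, adjusted p = 0.03976) with total counts. For Psmb10 it was -0.23 (SE 0.101, adjusted p = 0.1791) and -0.29 (SE 0.102, adjusted p = 0.06764). The difference between backgrounds in the Psme1 effect was therefore called with 1 scaling and not with the other.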

How the data were processed

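RNA-seq libraries from the striatum of 48 mice were analysed, per the labels stranded TruSeq preparations of total RNA, 1 library per mouse. The sample titles name mRNA. The authors deposited raw counts per gene, as whole numbers, and FPKM for these genes. Alignment used STAR 2.7.5c and counting HTSeq 0.12.3, with SAMtools 1.10 and GRCm38 (mm10) also listed, per the submitters' processing notes. Neither labels nor headers state the annotation release, strand setting or filters. The deposited FPKM values equal the deposited counts times a constant per gene over the library total (largest relative deviation 4e-07 over 19144 genes), so they add only a length scale. GENCODE M21 held 48435 of the 48795 gene identifiers and gave coordinates, and 27 symbols turned into dates were restored.

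A low-count filter (filterByExpr in edgeR, grouped by genotype, minimum count 10) left 19714 genes. The test was edgeR 4.0.16 (R 4.3.3): TMM scaling, robust dispersions and the quasi-likelihood F-test on all 48 libraries, with genotype and sex as terms (41 residual degrees of freedom), Benjamini-Hochberg adjusted over all genes tested, threshold 0.05. The SE is the log2 fold change over the square root of F. CPM levels are TMM-scaled unless total counts are named. Groups came from the titles, and p-values measure the spread between mice. The script was tested on simulated data.

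Alternatives were total-count and RLE scaling, DESeq2 1.42.0, limma 3.58.1 on log2 of FPKM plus 0.1 or 1, other filters, terms and sets of libraries. Sex and replicate number did not pair mice across groups (mean correlation of residuals -0.0137 over 120 pairs, -0.0258 over 360 pairs of other numbers). Full values are given for the immunoproteasome and activator genes, for the largest and smallest estimate of each subcomplex in Q140 minus WT, and for up to 8 genes called in each other comparison; other proteasome genes were named after their values were seen. The genes and lists were chosen with earlier results of these data known. Of the 47 genes, 23 overlap the span of another annotated gene, 9 of them one of at least 1 CPM, and their counts depend on the strand setting. Promoter windows are those of RefSeq for GRCm38.p6. Values of 2 genes of the comparison lists are counted in their lists but not reported here by name.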

Additional observations from a re-analysis of the deposited data

Results flagged for a closer look

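In the 282 groups of 8 mice formed by 47 genes and 6 genotypes, 18 held a mouse whose TMM-scaled CPM stood apart from the others, with a gap to the next mouse, relative to the group's range, above the 95% critical value of Dixon's test (chance flags about 1 in 20 groups). No mouse was left out of the reported values for this reason. The widest of these gaps relative to the range was in Psmb8, at 3.80 CPM in the WT female F2 beside a next value of 2.25 CPM, and it bears on the comparison of Psmb8 between Q140 and WT mice. Psmb9, the other scarce immunoproteasome gene, was at 1.52 CPM in the Msh3-/- female F3. The same WT female had a low Psmd10, at 8.01 CPM.

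The Q140 male M2 stood apart in 3 genes and was low in each: Psma1 at 50.8 CPM, Psmb7 at 51.0 CPM and Psme2 at 5.53 CPM. Without it Psme2 passed in Q140 minus WT, at 0.19 (edgeR adjusted p = 0.04708). Other Q140 mice were high: Psmd13 in the male M3 at 52.7 CPM, Psmd5 in the female F3 at 45.7 CPM and Psmd10 in the female F2 at 12.5 CPM. Psma7 was at 62.1 CPM in the WT male M4 and at 50.2 CPM in the Q140 x Msh3-/- female F1, and Psma6 at 42.0 CPM in the Q140 x Msh3-/- male M1. In Msh3+/- mice, Psmb2 was at 43.4 CPM in M4, Psmc4 at 66.0 CPM in F1, Psmd13 at 51.0 CPM in M1 and Psmf1 at 22.3 CPM in F1. Psmc2 was at 61.1 CPM in the Q140 x Msh3+/- male M4, and Psmd12 at 37.6 CPM in the Msh3-/- male M1.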

How the results depend on the processing

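Over 16 alternatives, 3 of them chosen after seeing the data (without 4 libraries apart on the residual component, without the WT female F2, without the Q140 male M2), 258 counts of called genes stayed within 1.5 times the reported one and 34 did not. Shares of all genes are given above for total counts and are not given for limma, so the limma counts show only dependence on the setting. Counts with total-count scaling and with limma on FPKM plus 0.1 or 1, which is also scaled to library totals, were as follows. In Q140 minus WT 36, 38 and 38 genes rose. In Q140 x Msh3-/- minus Q140 22, 22 and 22 fell and 0, 0 and 0 rose. On the Msh3+/- background 14, 15 and 15 rose, and on the Msh3-/- background 5, 4 and 4. In the interaction with Msh3-/- 5, 5 and 5 were lower. With the name prefix as a term, these counts were 4 higher in Q140 minus WT, 1 lower and 0 higher in Q140 x Msh3-/- minus Q140, 0 lower in Q140 x Msh3+/- minus Q140 and 0 higher on the Msh3-/- background, where a fit of the groups compared alone gave 1. Mice alone in their prefix add nothing to the fits with this term. In Q140 x Msh3+/- minus Q140, 3 genes fell with DESeq2, 2 with the well column as a term, and between 2 and 4 without 1 mouse (F2 or M2). For these settings too the share of all genes is not given. The single higher gene of Q140 x Msh3-/- minus Q140, Psmb8, gave 0 calls also without the low-count filter, with the well column as a term, without sex and without the 4 libraries of other names. These last 4, Q140 F4 and M4 and WT F3 and F4, have names that do not begin with Mh3Q. Without them the log2 fold changes in Q140 minus WT were 0.42 for Psmb10, 0.38 for Psme1, -0.42 for Psmb8 and -0.21 for Psmb9. Without the 4 libraries apart, 1 gene fell in Q140 minus WT (Psmb8). The replicate block, which did not pair mice, gave 2 lower genes in Q140 x Msh3+/- minus Q140.

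Of the named genes' log2 fold changes, 554 kept their direction and side of the threshold, 31 lost the call, 24 gained it and 15 turned sign, none of them a called value. In Q140 minus WT, Psmb6 turned to 0.0558 with total counts, 0.0571 and 0.0556 with limma and 0.00918 with the well column, and Psmd9 to 0.0526, 0.0492, 0.0378 and, without the 4 libraries of other names, 0.0369. With the name prefix, Psmc1 turned to -0.0779, Psmd4 to -0.00488 and Psmg4 to -0.0176, and Psmb9 to -0.0897 in Q140 x Msh3-/- minus Q140. Psmg4 was -0.0576 with the well column. Without M2 or F2, Psmg4 ran from -0.0124 to 0.0196 and Psmc1 from -0.0155 to 0.0165. The cause of these differences was not tested. The counts behind Psmb8 and Psmb9 limit what their comparisons can show.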
